A study of Homo sapiens with 3 samples.

Results

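The collagen genes, which encode the main fibrous proteins of the extracellular matrix, were examined for MYC occupancy in U2OS, a human osteosarcoma cell line used in its parental form. Members were all RefSeq protein-coding genes whose symbol has the form of a collagen chain, COL, a type number, A and a chain number. This gave 44 of the 19970 protein-coding genes on chromosomes 1 to 22 and X. Every summit of the deposited MYC peak list that lay inside one of these genes or within 5000 bp of it was assigned to that gene, and genes without a summit remained members. The assay was ChIP-Rx, in which DNA pulled down with an antibody is sequenced and cells of another species are mixed in beforehand to serve as an external standard. Per the labels, formaldehyde-fixed U2OS cells (1%, 10 min) were mixed with 10% of mouse NIH3T3 fibroblasts, and 2 MYC immunoprecipitation (IP) libraries and 1 input library were sequenced. The only cells studied were parental U2OS cells with no treatment, so the comparison available is that of IP with input, which the authors had already reduced to 1 list of 9818 peaks.

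Collagens are assembled from chains that wind around each other in a long helix, and each type combines chains from 1 or several genes. Fibrillar collagens form the tensile fibres of bone, skin and cartilage, type IV collagens form the sheet of basement membranes, and FACIT collagens attach to the surface of fibrils. Type I collagen, made of COL1A1 and COL1A2 chains, is the chief protein of bone matrix and a product of osteoblasts, the lineage that osteosarcomas resemble. MYC is a transcription factor that binds DNA with its partner MAX, most often at active CpG-rich promoters, and prefers the E-box CACGTG and its relatives. Expression was not measured, so neither the bone identity of the cells nor the activity of any collagen gene was checked here.

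The sequences of 4 promoter windows frame the results. They come from RefSeq (GRCh38.p14) and run 5′ to 3′ on the strand of the named gene, from 250 bases before its annotated start to 50 bases from the start on. Capitals mark matches to 5 E-box-like motifs searched on both strands: the canonical E-box CACGTG, the variant CACGCG, the variant CACGAG, the variant CATGCG and the variant CATGTG. None of these matches overlap in the printed windows. A match on the other strand is shown as it reads on the printed strand. The COL12A1 window is shown because it is the only printed collagen window that a MYC peak overlapped. The WDR75 window is shown because it lies under the strongest peak assigned to a collagen gene, COL5A2. The COL4A1 window faces that of COL4A2, and the COL25A1 window holds motif matches and the highest ratio of observed to expected CpG among the 32 collagen windows, and both lay far from any summit.
COL12A1, chr6:75206004-75206303, minus strand: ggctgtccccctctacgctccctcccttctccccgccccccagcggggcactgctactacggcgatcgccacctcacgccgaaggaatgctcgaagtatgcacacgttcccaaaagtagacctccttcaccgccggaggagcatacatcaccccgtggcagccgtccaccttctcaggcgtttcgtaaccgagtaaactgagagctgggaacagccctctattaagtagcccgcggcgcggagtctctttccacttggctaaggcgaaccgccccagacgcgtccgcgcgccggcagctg
WDR75, chr2:189441224-189441523, plus strand: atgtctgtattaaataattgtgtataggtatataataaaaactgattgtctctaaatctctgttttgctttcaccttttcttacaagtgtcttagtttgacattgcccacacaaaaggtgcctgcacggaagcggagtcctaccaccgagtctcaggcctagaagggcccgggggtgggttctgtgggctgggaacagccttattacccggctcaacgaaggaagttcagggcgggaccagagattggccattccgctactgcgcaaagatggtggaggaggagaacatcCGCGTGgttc
COL4A1, chr13:110307108-110307407, minus strand: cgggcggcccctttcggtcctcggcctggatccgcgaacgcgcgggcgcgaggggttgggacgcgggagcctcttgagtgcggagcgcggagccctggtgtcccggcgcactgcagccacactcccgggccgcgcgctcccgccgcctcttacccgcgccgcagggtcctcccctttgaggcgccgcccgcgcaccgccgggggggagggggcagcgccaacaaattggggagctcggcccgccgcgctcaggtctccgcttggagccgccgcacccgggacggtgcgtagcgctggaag
COL25A1, chr4:109302609-109302908, minus strand: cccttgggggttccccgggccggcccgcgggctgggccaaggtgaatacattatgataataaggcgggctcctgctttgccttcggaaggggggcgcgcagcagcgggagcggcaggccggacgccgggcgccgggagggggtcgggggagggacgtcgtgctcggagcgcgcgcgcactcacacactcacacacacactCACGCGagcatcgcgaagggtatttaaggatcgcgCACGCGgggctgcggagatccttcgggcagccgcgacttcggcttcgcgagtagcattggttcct

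MYC summits were found at few collagen genes. Of the 44 genes, 10 had a summit inside them or within 5000 bp (22.7%), beside 47.7% of all protein-coding genes. A summit lay within 1000 bp of an annotated end, called an end summit below, at 4 collagen genes (9.09%), beside 37.6% of all protein-coding genes. These were COL5A2, COL1A1, COL12A1 and COL9A2. A summit inside the gene and over 1000 bp from both ends, called an inside summit, was found in 7 collagen genes (15.9%), beside 9.05% of all protein-coding genes. These were COL16A1, COL5A3, COL2A1, COL26A1, COL1A1, COL22A1 and COL18A1, and COL1A1 was the only gene with both kinds. No collagen gene had a summit in the outer flank alone, 1000 to 5000 bp outside the gene. No test accompanies these counts, because the list gives 1 value per peak and none per library, and so has no replicate error.

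Where collagen genes had peaks, these were low and narrow for this list. The 11 collagen peaks had a median fold enrichment over input of 4.40 (range 3.29 to 8.04), beside 7.78 for all 9818 peaks, and a median −log10 q-value of 19.1 (13.1 to 92.9), beside 47.8. All folds and −log10 q-values of single peaks are the authors' own. Only the COL5A2 peak exceeded the list's median fold, and only the COL5A2 and COL16A1 peaks exceeded its median −log10 q-value. Their median width was 491 bp (294 to 983 bp) beside 747 bp for the list. The strongest end peaks of the 4 collagen genes had a median fold of 4.34, beside 8.31 for the 7508 protein-coding genes with an end summit. The 7 inside peaks had a median fold of 5.17, beside 7.38 for the 1825 peaks that lay inside a protein-coding gene and at no end of one.

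**Figure D1:**
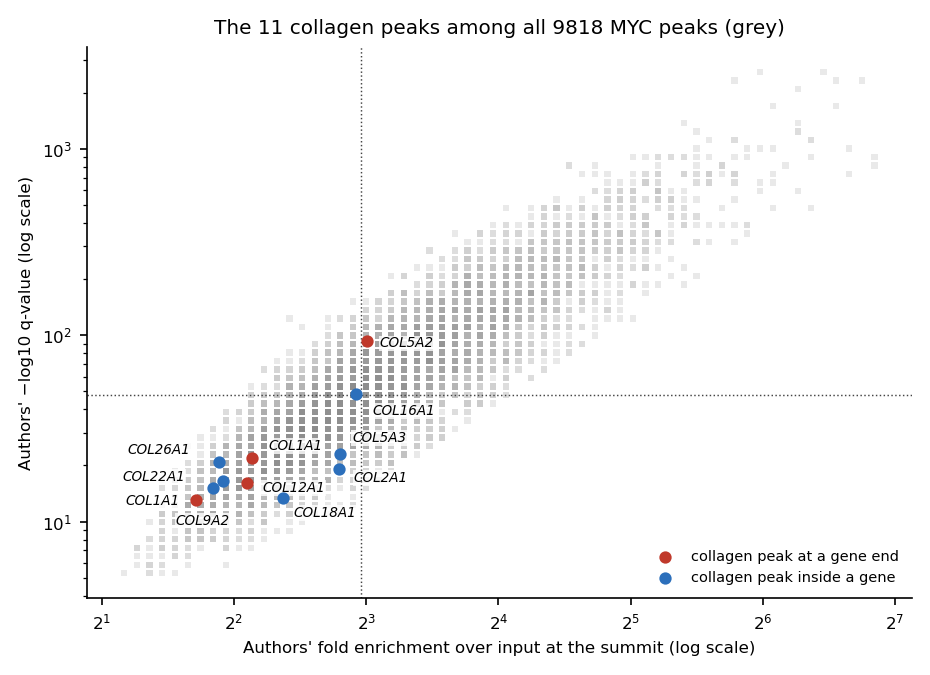
Authors' fold enrichment over input (horizontal, log scale) against −log10 q-value (vertical, log scale) for all 9818 MYC peaks (grey squares, darker where more peaks fall) and the 11 collagen peaks (red at a gene end, blue inside a gene); dotted lines mark the list's medians of 7.78 and 47.8. All but 1 of the collagen points lie left of the median fold and COL5A2 lies just right of it.

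Among the fibrillar collagens 4 of 11 genes had a summit, 2 of them at an end. The peak assigned to COL5A2, a chain of the type V collagen that regulates fibril diameter, was the strongest of the set (chromosome 2, 189440957 to 189441939, hg38). Its fold was 8.04, its −log10 q-value 92.9, and 47.4% of all peaks had a higher fold. Its summit lay 364 bp outside the higher-coordinate end of COL5A2 and 1 bp from the annotated start of WDR75, a gene for a ribosome biogenesis factor of the small-subunit processome. The whole WDR75 window printed above lay under this peak, with the summit at base 252 of the window and the start at base 251. The window held 1 motif match, CGCGTG at bases 291 to 296, which is CACGCG on the other strand. The annotated span of COL5A2, 409214 bp long, ends 363 bp from the WDR75 start, so the summit counts for both genes and lies nearer to WDR75. Without summits that lie nearer an end of another gene, 3 collagen genes kept an end summit, beside 28.8% of all protein-coding genes.

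COL1A1, the gene of the main chain of type I collagen, carried a pair of weak peaks (chromosome 17, gene from 50184101 to 50201631). The stronger spanned 50200649 to 50201157 (fold 4.40, −log10 q-value 21.8), and its summit lay 733 bp inside the higher-coordinate end. The weaker spanned 50200080 to 50200373 (fold 3.58, −log10 q-value 15.1), and its summit lay 1401 bp inside the same end. The summits were 668 bp apart and 275 bp separated the peaks. A higher fold was found at 89.5% of all peaks for the stronger and at 96.5% for the weaker. COL1A2, which encodes the partner chain of type I collagen, had no summit within 79111 bp, and the summit nearest to it lay 529 bp from an end of CASD1.

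COL2A1 and COL5A3 each had 1 inside summit. COL2A1, the cartilage type II chain, had a peak at 48000956 to 48001543 on chromosome 12 (fold 6.95, −log10 q-value 19.1), 5062 bp inside its higher-coordinate end. COL5A3, the third chain of type V collagen, had one at 10008788 to 10009148 on chromosome 19 (fold 6.96, −log10 q-value 22.9), 1503 bp downstream of its 5′ end. COL1A1, COL2A1 and COL5A2 are known to be transcribed towards lower coordinates, so their higher-coordinate end is the 5′ end of the annotated span. Promoter sequences were not available for these genes, so where their transcripts start within the span was not checked. Whether any inside summit falls in an exon or an intron was not analysed here. The other fibrillar genes, COL1A2, COL3A1, COL5A1, COL11A1, COL11A2, COL24A1 and COL27A1, had no summit inside them or within 5000 bp. COL11A2, on chromosome 6, had its nearest summit 377833 bp away. It had 12 other protein-coding genes within 100000 bp, the most of any collagen gene. Whether this stretch of the chromosome could yield peaks was not examined. COL11A1 had the most distant nearest summit of all collagen genes, 1850637 bp away.

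Among the 10 FACIT collagens 4 had a summit. COL12A1, whose product lies on the surface of type I fibrils, had the summit closest to its own end of all collagen genes, 125 bp downstream of the 5′ end (chromosome 6, 75205797 to 75206175, fold 4.29, −log10 q-value 16.0). This peak covered 172 of the 300 bases of the COL12A1 window printed above. The window had a GC content of 63.3% and a ratio of observed to expected CpG of 1.01, and held none of the 5 motifs. COL9A2, a chain of cartilage type IX collagen, had the lowest fold of the collagen peaks at 3.29, with a −log10 q-value of 13.1 and a summit 478 bp downstream of its 5′ end (chromosome 1, 40316616 to 40316925). COL16A1 had the strongest inside peak (chromosome 1, 31700940 to 31701868), at fold 7.58 and −log10 q-value 48.2, and its summit lay 2373 bp downstream of the 5′ end. COL22A1, found at tissue junctions, had a peak deep in the gene (chromosome 8, 138830870 to 138831746, fold 3.77, −log10 q-value 16.5), 82467 bp from its nearer end. COL9A1, COL9A3, COL14A1, COL19A1, COL20A1 and COL21A1 had none.

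Outside these classes 2 more genes had a summit. COL26A1 had a peak at 101363675 to 101364165 on chromosome 7 (fold 3.70, −log10 q-value 20.8). Its summit lay 1454 bp downstream of the 5′ end of the annotated gene and 967 bp from the start in the promoter table, so with starts of that table counted as ends 5 collagen genes had an end summit, beside 40.3% of all protein-coding genes. COL18A1, a multiplexin of basement membranes from which endostatin is cut, had a peak at 45427749 to 45428117 on chromosome 21 (fold 5.17, −log10 q-value 13.4). That summit lay 22839 bp downstream of the 5′ end and 2934 bp from an end of the noncoding gene COL18A1-AS1. The other multiplexin, COL15A1, had none, nor did COL7A1, the anchoring fibril chain, or COL28A1.

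No summit lay inside or within 5000 bp of any of the 6 type IV genes, the 5 type VI genes that form beaded filaments (COL6A1, COL6A2, COL6A3, COL6A5 and COL6A6), the 3 short-chain network genes (COL8A1, COL8A2 and COL10A1) or the 4 transmembrane genes (COL13A1, COL17A1, COL23A1 and COL25A1). In all, 34 collagen genes had none, and the nearest summit was over 100000 bp away for 13 of them and within 25000 bp for 12. Their median distance to the nearest summit was 75355 bp, beside 85879 bp for all protein-coding genes that likewise had none. The 3 genes just outside the 5000 bp limit were COL23A1 at 5106 bp, COL8A2 at 6356 bp and COL7A1 at 6837 bp. The summit near COL23A1 (fold 9.25) lay 310 bp from an end of PHYKPL, and the one near COL8A2 (fold 11.3) lay 9 bp from an end of ADPRS. The summit near COL7A1 had a fold of 3.11 and lay 4482 bp from an end of UCN2. No assigned summit lay just inside the limit, and the outermost was that of COL5A2, 364 bp outside the gene.

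**Figure D2:**
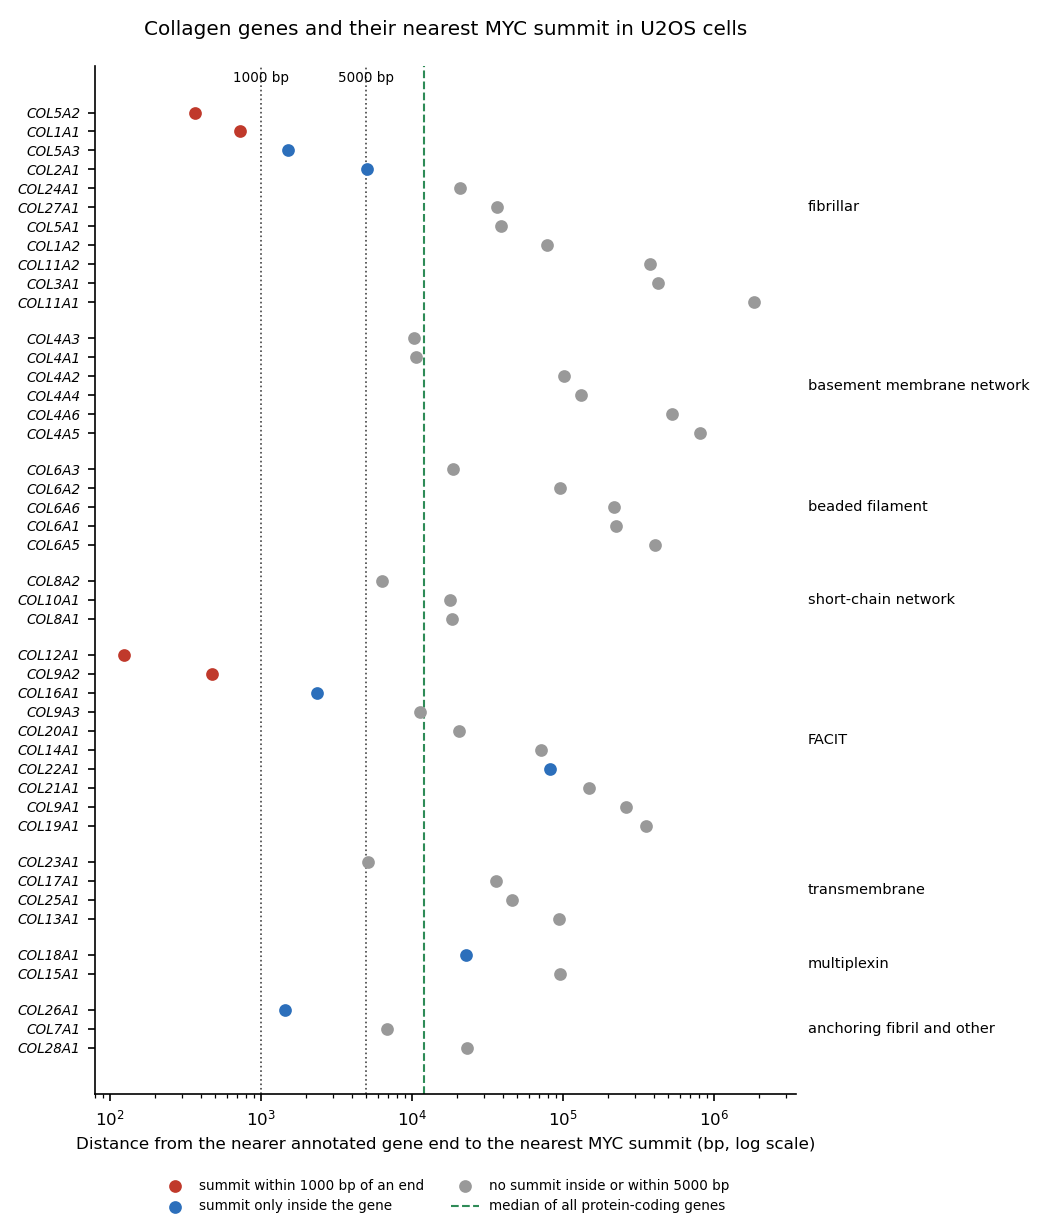
Distance from the nearer annotated end of each of the 44 collagen genes to the nearest MYC summit (log scale, bp), grouped by class; red points have a summit within 1000 bp of an end, blue points have one only inside the gene, grey points have none inside or within 5000 bp, and the dashed line is the median of all protein-coding genes, 12004 bp. The 4 red points are COL12A1, COL5A2, COL9A2 and COL1A1, and no gene of the basement membrane, beaded filament, short-chain or transmembrane classes is coloured.

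The type IV genes are arranged in 3 pairs that are transcribed away from each other from facing starts. The 5′ ends lay 127 bp apart for COL4A1 and COL4A2, 136 bp for COL4A4 and COL4A3, and 380 bp for COL4A6 and COL4A5. The nearest summit to these facing ends was 168929 bp away for COL4A1 and COL4A2, 160569 bp for COL4A4 and COL4A3, and 810409 bp for COL4A6 and COL4A5. Among all 1097 pairs of protein-coding genes with facing 5′ ends within 1000 bp, 72.5% had a summit within 1000 bp of either end. The COL4A1 window printed above had a GC content of 76.7% and an observed to expected CpG ratio of 1.02, similar to the CpG ratio of the COL12A1 window that a peak overlapped.

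Collagen genes are long, with a median of 144672 bp (16798 to 493934 bp) beside 24190 bp for all protein-coding genes, and long genes have more room for inside summits. Both collagen genes under 20000 bp, COL1A1 and COL9A2, had an end summit, beside 31.4% of all genes of that length. None of the 10 genes of 20000 to 50000 bp and none of the 6 of 50000 to 100000 bp did, beside 46.4% and 43.9% of all genes in these classes. Of the 12 genes of 100000 to 200000 bp COL12A1 did, beside 39.7%, and of the 14 longer genes COL5A2 did, beside 31.5%. Over all lengths 9.09% of collagen genes had an end summit, against 38.8% of all protein-coding genes once these are weighted to the length classes of the collagen genes.

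Inside summits were counted against gene length in the same way. Weighted to the same length classes, all protein-coding genes would hold an inside summit in 16.6% of cases, beside 15.9% of collagen genes. Per length, collagen gene bodies held 1.02 inside summits per Mb (7 summits in 6.87 Mb, exact Poisson 95% interval 0.410 to 2.10, counting error only), and all protein-coding gene bodies held 1.70 (1.63 to 1.77). Of the 2128 inside summits of all genes, 26.1% lay within 1000 bp of an end of another gene, while none of the 7 in collagen genes did. Without such summits the density over all genes was 1.25 per Mb (1.19 to 1.32). This value and the 1.70 with all inside summits both lay inside the collagen interval. For protein-coding genes of at least 20000 bp the density was 1.52 with all inside summits and 1.14 without those near another gene's end. By length, COL1A1 held one among the 2 collagen genes under 20000 bp, beside 3.34% of all genes of that length. COL2A1 did among the 10 of 20000 to 50000 bp, beside 8.41%, and COL16A1 and COL5A3 did among the 6 of 50000 to 100000 bp, beside 14%. COL18A1 and COL26A1 did among the 12 of 100000 to 200000 bp, beside 19.4%, and COL22A1 did among the 14 over 200000 bp, beside 23.1%. Of the 26 collagen genes of at least 100000 bp, 21 had no summit inside or within 5000 bp, beside 34 of all 44 collagen genes. The same share was not computed for all protein-coding genes of that length.

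**Figure D3:**
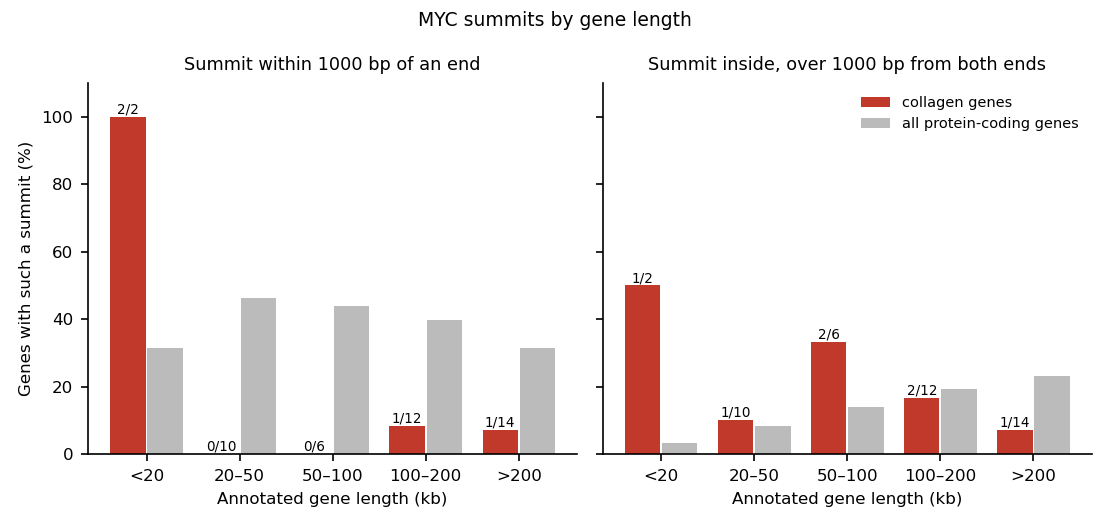
Percent of collagen genes (red, with counts above the bars) and of all protein-coding genes (grey) that have a summit within 1000 bp of an annotated end (left) or inside and over 1000 bp from both ends (right), by gene length in kb. The red end bars rest on 2 of 2 genes in the shortest class and on 0 to 1 gene in each of the others.

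The side of the start on which a summit lay was examined where strand was known. Strand was taken from the promoter table, which held 32 of the 44 collagen genes and 15812 of the protein-coding genes; COL1A1, COL1A2, COL2A1, COL3A1, COL5A2, COL6A1, COL6A5, COL8A1, COL9A3, COL14A1, COL20A1 and COL22A1 had no entry. In total 5 summits lay within 5000 bp of the 5′ end of one of the 32 genes, and all 5 were downstream, at 125 bp for COL12A1, 478 bp for COL9A2, 1454 bp for COL26A1, 1503 bp for COL5A3 and 2373 bp for COL16A1. Over all protein-coding genes 49.3% of the 7045 such summits were downstream, the median position was 3 bp upstream of the 5′ end, and 34.1% lay within 100 bp of it. None of the 5 collagen summits lay within 100 bp, and 3 lay over 1000 bp downstream, as did 7.08% of summits over all genes. Among these 3, the summit of COL26A1 lay 967 bp from the start in the promoter table. With 5 summits these are descriptions of single genes. No summit lay within 1000 bp of the 3′ end of any of the 32 collagen genes, beside 1.80% of all protein-coding genes.

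Promoter composition was known for the same 32 collagen genes. Their windows had a median GC content of 66.3% and a median observed to expected CpG ratio of 0.702, beside 62.7% and 0.762 for all protein-coding genes and 65.7% and 0.875 for genes with a summit within 1000 bp of the 5′ end. A ratio of at least 0.6, a common mark of CpG islands, was found in 19 collagen windows (59.4%), beside 65.6% of all windows. Among those 19 genes, COL12A1 and COL9A2 had a summit within 1000 bp of the 5′ end, whereas 54.6% of all genes with such windows did. The 5′ end is that of the annotated span, for collagen genes and all genes alike. COL26A1, with a ratio of 0.876, is not counted, since its summit lay 1454 bp from that end. It lay 967 bp from the start to which the COL26A1 window belongs. None of the 13 collagen genes with a lower ratio had one, beside 8.75% of all such genes. Over both classes 6.25% of the 32 collagen genes had a 5′ summit, against 36% of all genes weighted to the same classes.

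**Figure D4:**
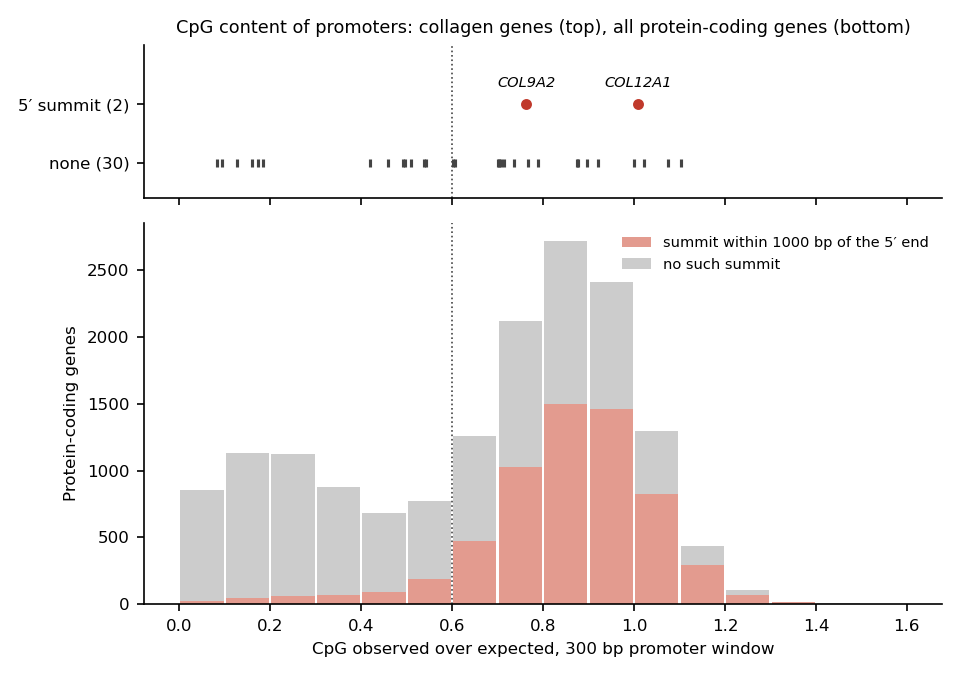
Observed to expected CpG ratio of promoter windows of 300 bp. Top, the 32 collagen genes, split by whether a summit lay within 1000 bp of the 5′ end of the annotated span (COL9A2 and COL12A1) or not; bottom, all protein-coding genes in bins of 0.1, with those that had such a summit in pink; the dotted line marks 0.6, and 19 collagen windows lie at or above it.

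E-box-like letters were sparse in the collagen windows. CACGTG was in none of the 32 windows, beside 8.82% of all protein-coding windows and 12.4% of those with a 5′ summit. CACGCG was in 3 (COL8A2, COL23A1 and COL25A1), beside 14.8% of all. CACGAG was in 2 (COL9A1 and COL10A1), beside 7.59%. No collagen window held CATGCG, beside 8.52% of all, and none held the variant CATGTG, beside 8.57%. Any of the 5 was in 5 collagen windows (15.6%), beside 38.7% of all windows and 46.8% of those with a 5′ summit. None of the 5 collagen genes with a match had a summit inside or within 5000 bp, beside 10 of all 44 collagen genes (22.7%). With only 5 genes this count cannot show whether matches and summits go together. COL25A1, a transmembrane collagen, held CACGCG at bases 201 to 206 and again at bases 236 to 241 of its window, with a CpG ratio of 1.10. The summit nearest to COL25A1 lay 46004 bp from the nearer end of the gene and 332 bp from an end of ETNPPL. The distance of that summit from the window was not computed. A match of letters in this window is not a binding site, and a window without one does not speak to the rest of the gene.

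The genes whose products modify, fold, export, crosslink or bind collagen chains were set beside the chains themselves. An end summit was found at 4 of the 44 collagen genes (9.09%), at 26 of 49 genes of this list (53.1%) and at 37.6% of all protein-coding genes. The median gene length was 144672 bp for collagen genes, 43748 bp for the list and 24190 bp for all. The median fold of the strongest end peaks was 4.34 for collagen genes, 6.14 for the list and 8.31 for all genes with an end summit, and 10 of the 26 listed genes lay above 8.31. With a window of 500 bp an end summit was found at 3 of the 44 collagen genes (6.82%), at 17 of the 49 listed genes (34.7%) and at 33.0% of all protein-coding genes. The list was chosen with earlier results of these data known, and its share was not weighted by gene length. Its median length falls in the class of 20000 to 50000 bp, where 46.4% of all genes had an end summit. The difference between these groups was not tested.

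The genes for modification of chains in the endoplasmic reticulum, which encode enzymes and their partners, had end summits at 12 of 15 genes. The share over all protein-coding genes was 37.6%. Of the 10 genes of prolyl hydroxylation, whose products stabilise the helix, 8 had one. P3H4, a partner protein without hydroxylase activity, led with a fold of 33.4, in a peak shared with FKBP10 (chromosome 17, 41811369 to 41813213). The summit of this peak lay 912 bp from an end of P3H4 and 143 bp from an end of FKBP10, so it lies nearer to FKBP10. P4HB, the shared subunit of prolyl 4-hydroxylase, followed with a fold of 18.3 and PPIB, a prolyl isomerase, with 13.6. P4HA1, P3H1, CRTAP, P3H3 and P4HA2 had end summits as well. The summits of P3H4, P4HB and P3H3 lay 912, 588 and 650 bp from an end, beyond the window of 500 bp. Of the 5 genes of lysyl hydroxylation and glycosylation 4 had one: the lysyl hydroxylases PLOD3 (fold 6.37), PLOD1 (6.99) and PLOD2 and the galactosyltransferase COLGALT1 (4.61). The PLOD3 peak was shared with ZNHIT1, the COLGALT1 peak with NIBAN3 and the P3H1 peak with C1orf50. With P3H4 and FKBP10, 5 genes of the whole list shared their end peak.

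Of the 12 genes of folding and export 6 had an end summit (50%), beside 37.6% of all protein-coding genes. FKBP10, a chaperone of type I procollagen, had the shared peak with a fold of 33.4, TRAM2 had 8.44, and SEC23A, a coat protein of export vesicles, had 6.01. FKBP14, SEC24D and TMEM38B also had one. SERPINH1, the collagen chaperone HSP47, had its nearest summit 4024 bp from an end. Propeptide removal had 3 of 8 genes with an end summit (37.5%), a share near that of all genes. These were PCOLCE (12.0), PCOLCE2 (8.77) and ADAMTS3 (3.89), of which the first pair enhance the procollagen C-proteinase. Crosslinking had 3 of 5 lysyl oxidases (60%), LOXL1 (8.83), LOX (4.73) and LOXL2 (4.53). Receptors had 2 of 9 (22.2%), the integrin subunits ITGB1 (11.2) and ITGA2 (5.55). The collagen-binding kinase receptors DDR1 and DDR2 had none. DDR1 lies on chromosome 6, as COL11A2 does, and its nearest summit was 2481162 bp away. Whether that stretch could yield peaks was not examined.

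**Figure D5:**
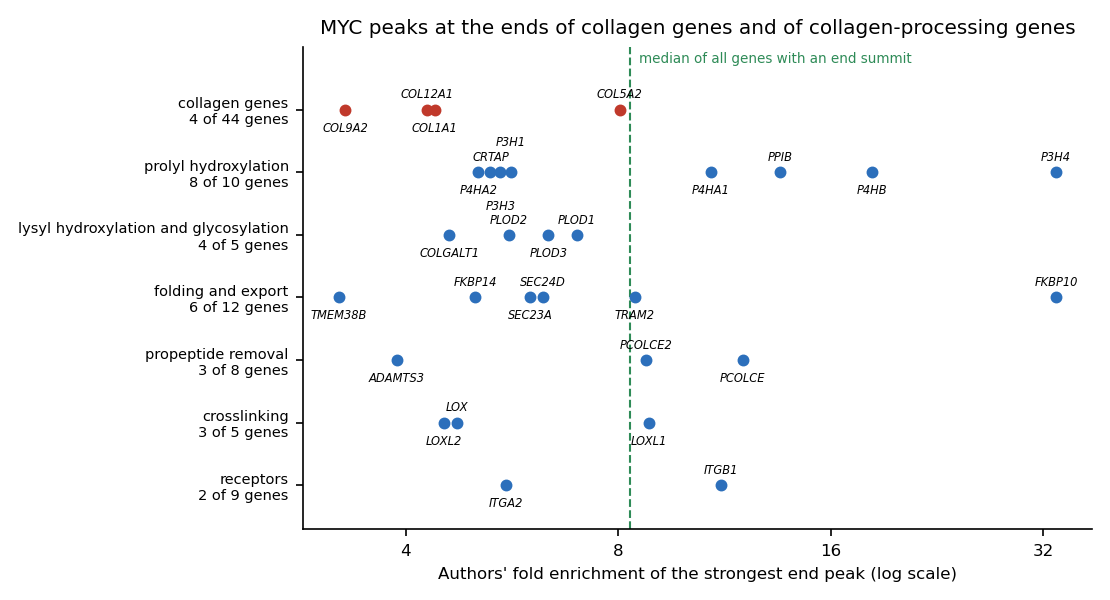
Authors' fold enrichment (log scale) of the strongest end peak of each collagen gene (red) and of each gene of collagen modification, folding, processing, crosslinking or binding (blue) that had an end summit; the dashed line is the median of all protein-coding genes with one, 8.31. The 4 collagen points lie left of the line, and P3H4 and FKBP10, which share 1 peak, lie farthest to the right at 33.4.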

How the data were processed

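MYC ChIP-Rx libraries of U2OS cells (2 IP, 1 input) were represented by 1 deposited peak list. Per the submitters' processing notes, cutadapt, Bowtie2, SAMtools, Picard and MACS2 were used with builds hg19, mm10 and hg38. No source used here gives the settings, the role of the mouse reads or whether the IP libraries were pooled. The build hg38 is that in the name of the list. The authors deposited, for each peak, a fold enrichment over control (a linear ratio), a −log10 q-value and a score. Fold and −log10 q-value alone were used, to describe and rank peaks. The lowest deposited −log10 q-value was 5.00. Depth is unknown and no library-level values were analysed.

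Summits were set against RefSeq gene spans (GRCh38.p14, 59094 genes, 19970 protein-coding) with Python 3.11.15 and pandas 2.3.3. A gene's strongest peak is the one with the highest −log10 q-value. Gene bodies exclude 1000 bp at each end, and overlapping genes each count. The promoter entry nearest the 5′ end was used. Classification was tested on simulated summits. Shares of all genes were weighted by length class or by CpG class, split at a ratio of 0.6. No test was run, since 1 list has no replicates. Every member was reported, with values for all that had a summit, and of the processing genes those with an end summit, with values for the 3 strongest of each subgroup by −log10 q-value. The members and lists were chosen with earlier results of these data known. Alternatives were other windows, stronger peaks, any base of the peak, 5′ ends alone and shared peaks counted once.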

Additional observations from a re-analysis of the deposited data

How the results depend on the processing

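Of 42 values recomputed under other settings, 31 stayed within 1.5 times the reported value or, for the density, within its interval, and 11 did not. Shares of all protein-coding genes follow in brackets. With a window of 500 bp 17 of 49 collagen-processing genes had an end summit, or 34.7% (33.0%), a share near that of all genes. An inside summit was held by 4 collagen genes, or 9.09% (7.4%), with 2000 bp and by 3, or 6.82% (6.2%), with 5000 bp. An end summit was held by 7, or 15.9% (44.0%), with 5000 bp, since the summits of COL26A1, COL5A3 and COL16A1, 1454 to 2373 bp inside, then count as end summits. The inside density was 0.590 per Mb with 2000 bp and 0.460 with 5000 bp, beside 1.45 and 1.34 over all protein-coding genes; both lie within the interval of the reported 1.02 but differ from it by over 1.5 times. In the stronger 50% of peaks 1 collagen gene had an end summit (21.3%), 1 an inside summit (4.49%) and 2 any summit (27.7%), and 11 processing genes had an end summit (21.3%). There the median end fold was 8.04, beside 11.7 for all genes, and the inside density 0.146 per Mb, beside 0.769. Counting only 5′ ends of genes with a strand left 2 of 32 collagen genes, or 6.25% (38.8%). Starts in the promoter table and the removal of summits nearer another gene were settings chosen after seeing the data. No paired analysis was possible because the list holds no values per library, and for the same reason no library could be left out.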
